A study of Homo sapiens with 6 samples.

Results

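The NR4A family of nuclear receptors consists of NR4A1 (also called NUR77), NR4A2 (NURR1) and NR4A3 (NOR1), and its members were chosen by gene symbol. All 3 were found among the 18118 genes counted by RNA-seq in SU-CCS-1 cells, an established human cell line of clear cell sarcoma that carries the fusion gene EWSR1::ATF1 (EA1). The 6 libraries comprised 2 transfected with a control siRNA (siNeg1), 2 with a first siRNA against EA1 (siEA1-1, here EA1 siRNA 1) and 2 with a second (siEA1-2, here EA1 siRNA 2), each harvested 48 h after transfection with 5 pmol of siRNA. The labels list these siRNAs separately, whereas the methods name a single siRNA against EA1, so how far siEA1-1 and siEA1-2 are distinct reagents is not given in the sources used here. All libraries came from 1 cell line under transient knockdown, with no untransfected cells among them. The labels give replicates by number and do not say that they were separate cultures, so p-values measure the spread between these libraries, which may be technical.

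Nuclear receptors are transcription factors that usually respond to a small lipophilic ligand. The NR4A receptors are orphan members in which bulky side chains fill the ligand pocket, so that their activity follows largely from how much of each protein is made. They are immediate early genes, induced quickly and briefly by many stimuli, and the cyclic AMP pathway acting through CREB at cAMP response elements is among the best known of these. Each can bind the NBRE, an octamer of sequence AAAGGTCA, as a monomer, and NR4A1 and NR4A2 can also pair with the retinoid X receptors (RXR). NR4A2 is required for midbrain dopaminergic neurons, NR4A1 acts in T cells, macrophages and steroid-producing cells, and NR4A3 is itself fused to EWSR1 in extraskeletal myxoid chondrosarcoma. ATF1, the partner of EWSR1 in EA1, belongs to the CREB family, which makes cAMP-responsive genes a natural group to examine after EA1 knockdown.

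The promoter windows that RefSeq supplies for the family (GRCh38.p14, 250 bases before to 50 bases after an annotated start) are shown because they carry or lack the letters that CREB family factors recognize. The windows matched 2 of the members, NR4A1 with 2 windows and NR4A3 with 1. Capitals mark TGACG on the printed strand or its reverse complement CGTCA, the core of the cAMP response element, and every other base is in lower case.
NR4A3, chr9:99821635-99821934, plus strand: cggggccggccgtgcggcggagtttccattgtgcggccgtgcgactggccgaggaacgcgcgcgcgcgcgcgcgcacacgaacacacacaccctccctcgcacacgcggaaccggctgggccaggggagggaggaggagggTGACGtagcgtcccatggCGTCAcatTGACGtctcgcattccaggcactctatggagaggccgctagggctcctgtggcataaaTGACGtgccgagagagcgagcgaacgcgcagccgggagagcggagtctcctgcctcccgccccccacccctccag
NR4A1, chr12:52022582-52022881, plus strand: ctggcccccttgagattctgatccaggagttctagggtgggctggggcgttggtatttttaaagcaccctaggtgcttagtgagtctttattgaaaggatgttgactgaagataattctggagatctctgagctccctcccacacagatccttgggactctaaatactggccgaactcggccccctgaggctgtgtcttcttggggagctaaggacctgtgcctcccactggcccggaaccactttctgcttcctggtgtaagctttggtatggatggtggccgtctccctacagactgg
NR4A1, chr12:52037465-52037764, plus strand: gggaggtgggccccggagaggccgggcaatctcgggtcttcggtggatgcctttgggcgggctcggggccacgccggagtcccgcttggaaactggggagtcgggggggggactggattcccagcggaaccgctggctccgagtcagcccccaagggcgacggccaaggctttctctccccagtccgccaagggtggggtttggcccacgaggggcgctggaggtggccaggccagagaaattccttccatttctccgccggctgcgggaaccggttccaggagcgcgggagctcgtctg
The NR4A3 window held 4 matches, 3 of TGACG with their first bases at -109, -83 and -25 from the start and 1 of CGTCA at -91. At least 1 such match was present in 24.6% of the 35116 RefSeq windows, and 4 or more in 110 of them (0.313%). Neither NR4A1 window held one. NR4A1 has 22 annotated transcripts, and sequence outside its 2 windows, which may hold other starts, was not examined. The full palindrome TGACGTCA, which contains both shorter forms and occurred in 1.85% of windows, was in none of the 3 windows, and neither were AAAGGTCA with its reverse complement TGACCTTT (1.22% of windows) or the AP-1 element TGAGTCA with TGACTCA (4.95%). The window that begins at 52022582 had a GC content of 53.3%, and the other NR4A1 window and that of NR4A3 had 69.7%. A match of letters in these windows is a description of the sequence and not a measured binding site.

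By GENCODE release 44 on hg38, NR4A1 (ENSG00000123358) lies on chromosome 12 from 52022832 to 52059507 on the plus strand with 22 annotated transcripts. NR4A2 (ENSG00000153234) lies on chromosome 2 from 156324437 to 156342348 on the minus strand with 15 transcripts. NR4A3 (ENSG00000119508) lies on chromosome 9 from 99821855 to 99866891 on the plus strand with 4 transcripts. Reads were counted per gene, so the transcripts of a gene could not be told apart.

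The libraries held between 5942808 and 7599305 counts. The target of the siRNAs was checked through ATF1, whose reads come from the fusion and from the normal allele together. ATF1 counts were 549 and 680 under siNeg1, 149 and 123 under EA1 siRNA 1, and 122 and 159 under EA1 siRNA 2. This left 24.5% and 26.0% of the control level, and a fall of the fusion and of normal ATF1 could not be told apart. EWSR1 log2 fold changes (log2FC, positive where higher in control) were 0.11 and 0.04 and did not pass the test. EWSR1 reads can also come from the fusion. The defining markers of clear cell sarcoma SOX10, MITF and PMEL had mean control levels of 827, 654 and 1220 normalized counts-per-million (CPM), whereas MLANA, another melanocytic marker, was near the detection floor with 4 and 0 counts. Of the 11 markers of this tumor examined, 10 were lower in control than with EA1 siRNA 1 and 9 than with EA1 siRNA 2, against 19.9% and 18.5% of all genes, and their part in the NR4A results was not tested. In RNA from a whole culture, fewer cells that express a gene and less RNA per cell cannot be told apart.

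All 3 NR4A receptors were higher in control cells than after EA1 knockdown with either siRNA. NR4A2 differed most, at 15.2-fold with EA1 siRNA 1 and 20.2-fold with EA1 siRNA 2, followed by NR4A3 at 3.99-fold and 3.10-fold and NR4A1 at 1.82-fold and 2.89-fold. By the quasi-likelihood test of edgeR, with Benjamini-Hochberg adjusted p-values taken over 14571 genes and called under 0.05, 20.3% of genes had a higher level in control than under EA1 siRNA 1 and 18.2% than under EA1 siRNA 2. All 3 members were called in this direction in both comparisons, which share the same 2 control libraries. For each member, both control libraries lay above all 4 knockdown libraries.

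NR4A2, the dopaminergic neuron receptor, was counted 533 and 507 times in control cells, 33 and 29 times under EA1 siRNA 1, and 10 and 36 times under EA1 siRNA 2. After normalization for library size these were 79.8 and 65.2 CPM in control, 4.69 and 4.78 CPM under EA1 siRNA 1 and 1.78 and 5.05 CPM under EA1 siRNA 2. The knockdown libraries were far below the controls, and the libraries of EA1 siRNA 2 differed from each other by a larger ratio than those of the other conditions. The log2FC was 3.93 (SE 0.28, 95% interval 3.33 to 4.54) with EA1 siRNA 1 and 4.34 (SE 0.29, 3.70 to 4.97) with EA1 siRNA 2, with adjusted p of 1.305e-06 and 1.112e-06 (edgeR). The levels that remained were 6.56% and 4.95% of control. By the size of the log2FC, NR4A2 ranked 64 and 45 among the 14571 genes tested, so that 0.439% and 0.309% of genes had a log2FC at least as large. Leaving out the first library of EA1 siRNA 2, which had 10 counts, gave a log2FC of 3.86, and leaving out the second gave 5.36, and NR4A2 was called in both.

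NR4A3, the most abundant member, had 1883 and 1888 counts in control, 455 and 406 under EA1 siRNA 1, and 408 and 685 under EA1 siRNA 2. In normalized CPM the controls were at 282 and 243, the EA1 siRNA 1 libraries at 64.7 and 66.9, and those of EA1 siRNA 2 at 72.6 and 96.2. The lower control library was thus well above the highest knockdown library, the second of EA1 siRNA 2. The log2FC was 1.99 (SE 0.14, 95% interval 1.69 to 2.30, adjusted p = 1.192e-06 by edgeR) with EA1 siRNA 1 and 1.63 (SE 0.14, 1.33 to 1.93, adjusted p = 5.29e-06) with EA1 siRNA 2. For comparison, the log2FC of ATF1 was 2.03, inside the NR4A3 interval, with EA1 siRNA 1 and 1.94, just above it, with EA1 siRNA 2. Of all genes tested, 2.91% and 4.06% had a log2FC at least as large as that of NR4A3.

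NR4A1 had 367 and 421 counts in control, 186 and 204 under EA1 siRNA 1 and 89 and 154 under EA1 siRNA 2. In normalized CPM it was at 54.9 and 54.1 in control, 26.5 and 33.6 under EA1 siRNA 1 and 15.8 and 21.6 under EA1 siRNA 2. Here the 3 conditions were in separate ranges, with control highest and EA1 siRNA 2 lowest. The log2FC was 0.86 (SE 0.17, 95% interval 0.49 to 1.24, adjusted p = 0.00174 by edgeR) with EA1 siRNA 1 and 1.53 (SE 0.18, 1.14 to 1.92, adjusted p = 5.343e-05) with EA1 siRNA 2. Among all genes tested, 12.8% and 4.52% had a log2FC at least as large.

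**Figure D1:**
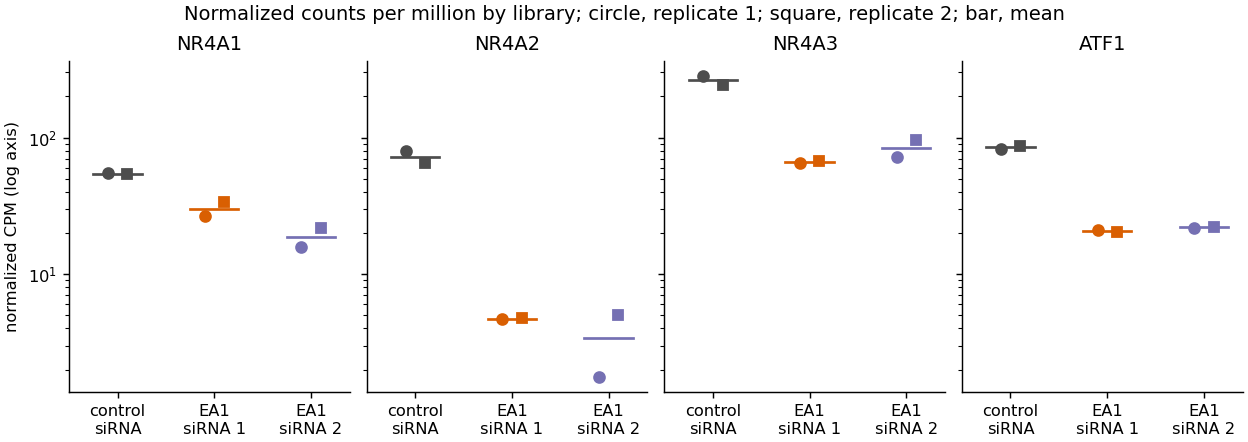
Normalized CPM on a log axis for each of the 6 libraries, for NR4A1, NR4A2, NR4A3 and ATF1. Circles are replicate 1, squares replicate 2 and bars the mean of 2 libraries; the libraries of EA1 siRNA 2 stand furthest apart for NR4A2, at 1.78 and 5.05 CPM.

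The intervals of the 3 members were separate from each other with EA1 siRNA 1. With EA1 siRNA 2 the interval of NR4A2 stood apart, and those of NR4A1 and NR4A3 overlapped. Differences between members in their fold change were not tested.

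**Figure D2:**
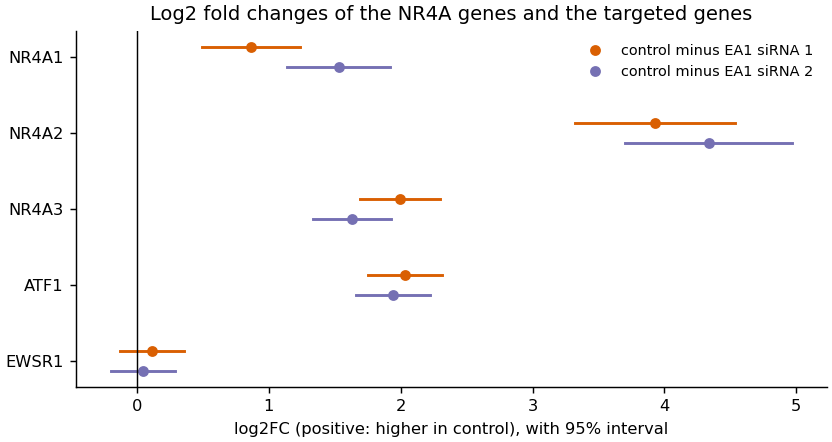
Log2 fold changes of NR4A1, NR4A2, NR4A3, ATF1 and EWSR1 for control against each EA1 siRNA, with positive values for higher in control; points are estimates from edgeR and lines their 95% intervals. All 6 NR4A intervals lie above 0, and both EWSR1 intervals include 0.

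The siRNAs were then compared with each other, as EA1 siRNA 2 minus EA1 siRNA 1, a comparison in which 2.24% of genes were called and none of the 3 members was. NR4A1 was lower with EA1 siRNA 2 (30.0 ± 5.05 against 18.7 ± 4.08 CPM for EA1 siRNA 1 and EA1 siRNA 2, SD, n = 2 each), with a log2 difference of -0.67 (95% interval -1.07 to -0.26, edgeR adjusted p = 0.0906). NR4A3 tended the other way, 65.8 ± 1.52 against 84.4 ± 16.6 CPM, with a log2 difference of 0.36 (0.06 to 0.67, adjusted p = 0.213). For NR4A2 the levels were 4.73 ± 0.0585 and 3.42 ± 2.31 CPM and the log2 difference -0.41, with a wide interval of -1.23 to 0.42 and an adjusted p of 0.656. Before adjustment over all genes, the edgeR p-values were 0.00386 for NR4A1, 0.0243 for NR4A3 and 0.304 for NR4A2. With the replicate number as a block, the NR4A1 difference was called (edgeR adjusted p = 0.0255). The libraries of EA1 siRNA 2 changed these calls when left out. Without its second library the NR4A1 difference was -0.93 (adjusted p = 0.0161), and without its first the NR4A3 difference was 0.55 (adjusted p = 0.0229) and the NR4A2 difference turned to 0.10 (adjusted p = 0.935).

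The second library of EA1 siRNA 2 was higher than the first for every member. The ratio of normalized CPM was 2.84 for NR4A2, 1.36 for NR4A1 and 1.32 for NR4A3. A ratio at least as high as that of NR4A2 was seen for 1.97% of 14486 genes. Among 2902 genes called higher in control than under EA1 siRNA 1, the median log2 ratio between these libraries was 0.13 and 67.7% were above 0, whereas among 2896 genes lower in control the median was -0.10 and 34.4% were above 0. Over all 14486 genes the median was 0.001 and 50.2% were above 0. ATF1 was similar in both libraries, with 122 counts of 5942808 and 159 of 7115758. What set these libraries apart was not tested.

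Levels of different genes were compared per length, as transcripts-per-million (TPM) over merged exons of 7295 bases for NR4A1, 4111 for NR4A2 and 6314 for NR4A3. In control cells NR4A3 was the main member, at 149 and 146 TPM, followed by NR4A2 at 64.6 and 60.2 TPM and NR4A1 at 25.1 and 28.2 TPM. These ranges did not overlap. After knockdown NR4A3 stayed first, at 38.4 and 39.7 TPM under EA1 siRNA 1 and 38.6 and 59.2 TPM under EA1 siRNA 2. NR4A2 became the least abundant, at 4.27 and 4.36 TPM and at 1.45 and 4.78 TPM, below NR4A1 at 13.6 and 17.3 TPM and at 7.29 and 11.5 TPM. In each knockdown library NR4A1 was above NR4A2, the reverse of both control libraries.

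The summed level of the family was 238 and 234 TPM in control, 56.2 and 61.3 TPM under EA1 siRNA 1 and 47.3 and 75.5 TPM under EA1 siRNA 2. The share of NR4A2 in this sum was 27.1% and 25.7% in control, 7.60% and 7.10% under EA1 siRNA 1 and 3.07% and 6.33% under EA1 siRNA 2. NR4A1 made up 10.5% and 12.0% in control cells, 24.1% and 28.2% under EA1 siRNA 1 and 15.4% and 15.3% under EA1 siRNA 2. NR4A3 held 62.4% and 62.3% in control, 68.3% and 64.7% under EA1 siRNA 1 and 81.5% and 78.4% under EA1 siRNA 2. The share of NR4A1 was thus higher with EA1 siRNA 1 and that of NR4A3 higher with EA1 siRNA 2, a description of 2 libraries each without a test.

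**Figure D3:**
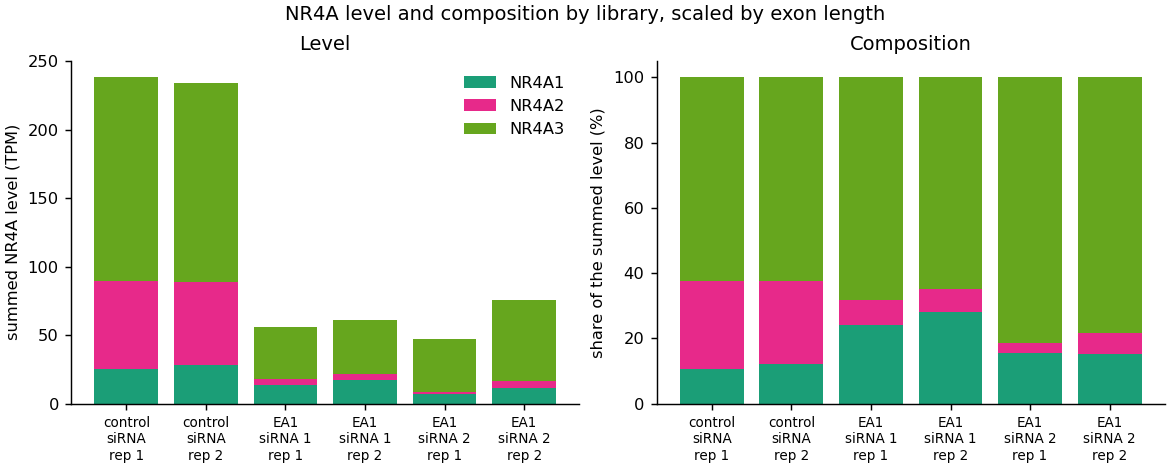
Stacked bars for each library give the summed NR4A level in TPM (left) and the share of each member in percent (right), per merged exon length. The summed level is 234 TPM or more in both control libraries and at most 75.5 TPM in the knockdown libraries, and NR4A2 falls to 7.60% or less of the sum.

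The family was set beside the rest of the nuclear receptor superfamily, a list of 48 genes of which 36 were analysed here and 34 tested. By mean control TPM, RXRG, the gamma form of the retinoid X receptor, ranked 1 at 159 and 187 TPM, and NR4A3 ranked 2, with libraries that did not overlap those of RXRG. NR4A2 ranked 5, its libraries overlapping those of NR2F6, an orphan receptor at rank 6 with 55.7 and 61.4 TPM. NR4A1 ranked 11, its libraries overlapping those of the thyroid hormone receptor THRA at rank 10. The NR4A1 libraries also overlapped those of RXRB, NR2C2 and PPARD at ranks 12, 13 and 14. With EA1 siRNA 1 the ranks of NR4A3, NR4A2 and NR4A1 were 8, 26 and 17, and with EA1 siRNA 2 they were 7, 26 and 20.

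Of the 34 receptors tested, 7 were higher and 7 lower in control than with EA1 siRNA 1, against 20.3% and 19.9% of all genes. With EA1 siRNA 2, 5 were higher and 9 lower, against 18.2% and 18.5% of all genes. Both counts include the 3 NR4A members. Of the other 31, 4 were higher and 7 lower with EA1 siRNA 1 and 2 were higher and 9 lower with EA1 siRNA 2, with median log2FC of -0.17 and -0.19 against -0.02 and 0.00 over all genes tested. The receptors higher in control with both siRNAs were the 3 NR4A genes, RXRG and RARA, the alpha retinoic acid receptor, and the largest mean log2FC among these 5 were those of the NR4A genes. ESR2, the beta estrogen receptor, had a log2FC of 2.46 with EA1 siRNA 1 on 1 and 6 counts and was called with that siRNA alone. The number of receptors called fell from 14 to 9 without the second control library for EA1 siRNA 1, and from 14 to 9 without the first library of EA1 siRNA 2 for that siRNA.

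Among receptors called with both siRNAs, those with the largest mean log2FC in the opposite direction were RORB, NR3C2 and THRA. RORB, a retinoid-related orphan receptor, had 4 and 2 counts in control and between 32 and 82 counts in the knockdown libraries. NR3C2, the mineralocorticoid receptor, had a log2FC of -1.78 (SE 0.33) with EA1 siRNA 1 and -1.82 (SE 0.33) with EA1 siRNA 2, and THRA had -1.03 (SE 0.14) and -1.01 (SE 0.14). All 3 were called with both siRNAs by edgeR.

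**Figure D4:**
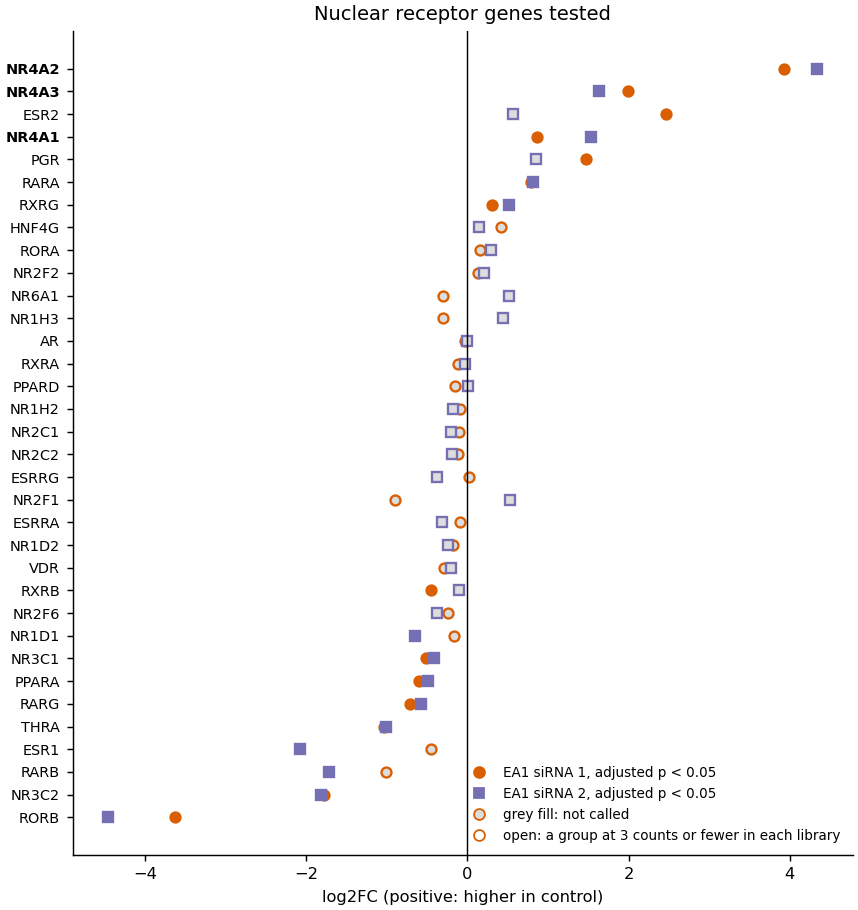
Log2 fold changes from edgeR for the 34 nuclear receptor genes tested, ordered by their mean over both EA1 siRNAs, with positive values for higher in control; circles are EA1 siRNA 1, squares EA1 siRNA 2, and grey fill marks genes not called. NR4A2 lies at the top at 3.93 and 4.34 and RORB at the bottom.

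The partners that NR4A1 and NR4A2 can pair with did not move together. RXRG was higher in control, with log2FC of 0.31 (SE 0.11, edgeR adjusted p = 0.0367) and 0.52 (SE 0.11, adjusted p = 0.00277). RXRA had log2FC of -0.12 and -0.03 and was not called, and RXRB was lower in control than with EA1 siRNA 1 (-0.46, SE 0.14, adjusted p = 0.0232) and not called with EA1 siRNA 2 (-0.11). Among 14 partner proteins in all, which also include corepressors, coactivators and modifying enzymes, 3 were higher and 5 lower with EA1 siRNA 1 and 2 were higher and 3 lower with EA1 siRNA 2. The shares higher in control, 21.4% and 14.3%, compare with 20.3% and 18.2% of all genes. The 5 and 3 of 14 that were lower compare with 19.9% and 18.5% of all genes.

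The NR4A genes are classical cAMP-CREB targets, so other such targets were examined in a list that leaves the family out. Of 28 tested, 16 were higher and 5 lower in control than with EA1 siRNA 1, and 19 were higher and 4 lower than with EA1 siRNA 2. The shares higher in control, 57.1% and 67.9%, compare with 20.3% and 18.2% of all genes, and the median log2FC were 1.07 and 1.26 against -0.02 and 0.00. The list was chosen with earlier results of these data known, so these shares are a description and not a test. All 16 genes higher in control with EA1 siRNA 1 were also higher with EA1 siRNA 2, in comparisons that share the controls. Over all genes tested, 2201 of the 2952 genes higher with EA1 siRNA 1 were also higher with EA1 siRNA 2. NR4A2 and NR4A3 lay above the list median with both siRNAs, and NR4A1 lay below it with EA1 siRNA 1 and above it with EA1 siRNA 2.

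By fitted mean log2FC among targets called with both siRNAs, AREG, PCK1 and GEM stood first, although the place of AREG depends on the prior count. AREG, a ligand of the EGF receptor, had 21 and 17 counts in control and 0 in all 4 knockdown libraries, so it was at least 5.79-fold and 5.58-fold higher in control against a floor of 3 counts per library. PCK1, the rate-limiting enzyme of gluconeogenesis, had 162 and 153 counts in control, 2 and 0 under EA1 siRNA 1 and 6 and 7 under EA1 siRNA 2. GEM, a small GTP-binding protein, had log2FC of 4.02 (SE 0.26) and 3.61 (SE 0.25), near those of NR4A2. CREM, a CREB family member whose ICER forms repress cAMP-responsive genes, had log2FC of 3.64 (SE 0.13) and 2.66 (SE 0.12).

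Not every cAMP target followed the NR4A genes. PPARGC1A, a coactivator of mitochondrial genes, had log2FC of -0.70 and -1.11, IRS2, an adaptor of insulin signaling, -1.02 and -0.57, and MITF, the melanocyte regulator, -0.76 and -0.81, all called lower in control by edgeR. The immediate early genes EGR1 and FOSB, named here after their values were seen, were lower in control than with EA1 siRNA 1 (-2.40 and -2.22) and not called with EA1 siRNA 2 (-0.86 and -0.14). FOSB had few counts, 9 and 9 in control and 14 and 3 under EA1 siRNA 2. FOS (1.13 and 2.33), JUNB (0.79 and 1.44), IER2 (0.92 and 1.55) and DUSP1 (1.41 and 2.16) were called higher with both siRNAs. ATF3 was called higher with EA1 siRNA 2 alone (0.30 and 1.04) and EGR3 with neither (0.24 and 0.95). These genes were also named after their values were seen. The immediate early genes of the list thus did not all share the direction of the NR4A members.

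**Figure D5:**
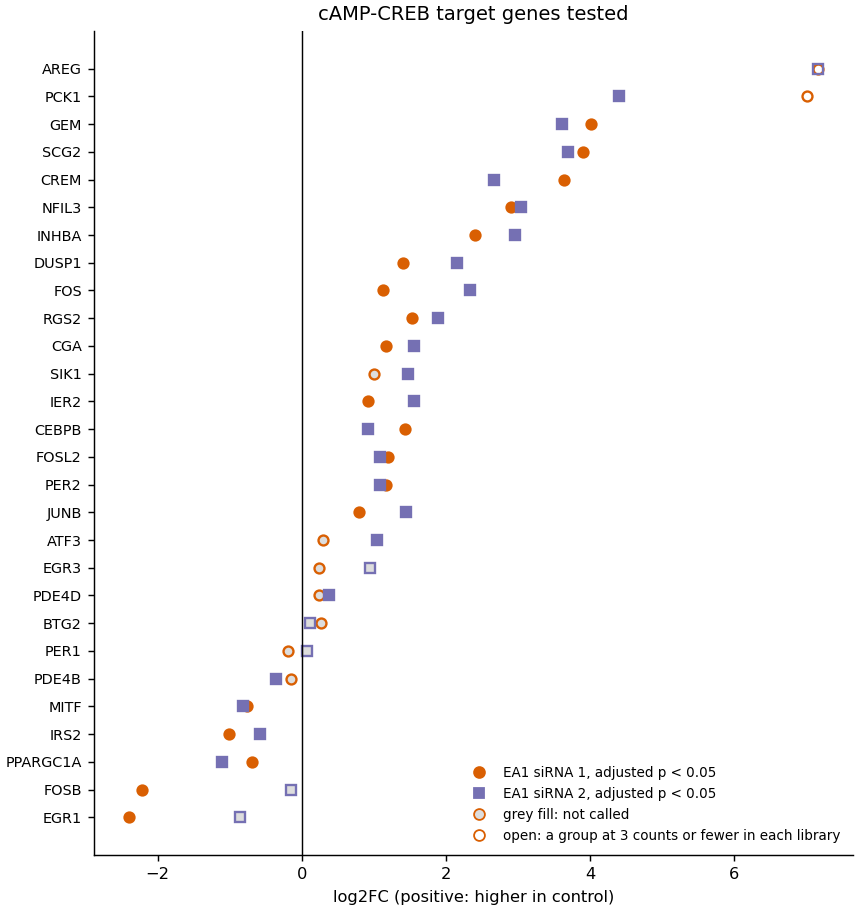
Log2 fold changes from edgeR for the 28 cAMP-CREB target genes tested, ordered by their mean over both EA1 siRNAs, with positive values for higher in control; circles are EA1 siRNA 1, squares EA1 siRNA 2, grey fill marks genes not called and open symbols a group with 3 counts or fewer in each library. Fitted values of open symbols depend on the prior count. With EA1 siRNA 2, 19 genes are called higher in control.

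The genes that carry the cAMP signal varied less uniformly. Of 18 components, which include protein kinase A subunits, CREB factors and their coactivators, 5 were higher and 4 lower with each siRNA, against 20.3% and 19.9% of all genes under EA1 siRNA 1 and 18.2% and 18.5% under EA1 siRNA 2. The higher ones include ATF1, whose reads come from the fusion and the normal allele together. Also higher with both siRNAs, named after their values were seen, were PRKAR1A (log2FC 1.42 and 1.39), SIK2 (0.41 and 0.63) and SIK3 (0.46 and 0.57). CREB1, the founding CREB factor, was lower in control, with log2FC of -1.34 (SE 0.11) and -1.28 (SE 0.11). The CRTC coactivators of CREB gave mixed values. CRTC1 had log2FC of -0.42 (not called) and -0.81 (called), CRTC2 0.04 and 0.15 (not called), and CRTC3 -0.45 (called) and -0.21 (not called).

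Genes reported to be regulated by NR4A receptors in other tissues were also counted. Of 30 listed, 11 were tested, and 7 were higher and 1 lower in control than with EA1 siRNA 1 and 8 higher and 1 lower than with EA1 siRNA 2, with median log2FC of 1.23 and 0.74. Over all genes tested, 20.3% and 18.2% were higher and the medians were -0.02 and 0.00. The lower gene was PFKM, a glycolytic enzyme, with both siRNAs. The higher ones, named after their values were seen, included TOX, a regulator of T cell exhaustion (log2FC 2.67 and 2.79), and the cell cycle genes CCND1 (3.79 and 3.13), E2F1 (1.30 and 0.74), SKP2 (0.67 and 0.59) and BIRC5 (1.23 and 0.61). The list mixes neuronal, metabolic, immune and cell cycle genes, and several of its members are regulated by many other factors. Like the cAMP target list, it was chosen with earlier results of these data known.

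Genes with TGACGTCA in a RefSeq promoter window were compared with all genes that have a window, since NR4A3 carries the shorter core. Of 407 such genes tested, 104 (25.6%) were called higher in control than under EA1 siRNA 1 and 97 (23.8%) than under EA1 siRNA 2, against 21.8% and 19.7% of 10321 genes with a window. In a group formed after the NR4A3 window was seen, with at least 4 matches of TGACG or CGTCA, 22 of 81 (27.2%) and 21 (25.9%) were higher, a group that includes NR4A3 itself.

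The patterns most like those of the members were ranked by the root mean square difference, in log2 CPM centred per gene, over the 6 libraries. For NR4A1 the nearest were IER2, an immediate early gene (0.0808), POLR1E, ST3GAL1 and SYNGR2 (0.127). IER2 had 210 and 210 counts in control, 102 and 100 under EA1 siRNA 1 and 45 and 83 under EA1 siRNA 2, the same stepwise order of conditions as NR4A1. For NR4A2 the nearest genes were further away, LINC01151 (0.233), FOXA1, a pioneer transcription factor, FAM43A, ADD2 and LRRN1 (0.445). LINC01151 had 2, 2, 0 and 4 counts in the knockdown libraries, so its distance depends on the prior count. Its fitted log2FC were 5.08 and 5.06, above those of NR4A2. For NR4A3 they were ATP1B3, a sodium pump subunit (0.0768), RAD51C, PRDM6, FEN1 and USP1 (0.118), of which RAD51C, FEN1 and USP1 act in DNA replication and repair. PRDM6 rests on 4, 4, 4 and 6 counts in the knockdown libraries. The members were less like each other than they were like the nearest genes named. Their differences were 0.658 between NR4A1 and NR4A3, 1.96 between NR4A2 and NR4A3 and 2.42 between NR4A1 and NR4A2.

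The members lie on 3 chromosomes, and the genes within 250 kb were called in both directions near NR4A1 only. Over all genes tested, 20.3% were called higher and 19.9% lower in control than with EA1 siRNA 1. With EA1 siRNA 2 these shares were 18.2% and 18.5%. Near NR4A1, 6 neighbours were tested, of which ATG101, KRT80 and KRT86 were higher in control with both siRNAs (log2FC 0.77 and 0.73, 3.24 and 3.08, 2.50 and 1.55) and ACVR1B and TAMALIN were lower (-0.84 and -0.72, -1.72 and -1.86). TAMALIN had 9 and 4 counts in control, and KRT86 had 6, 4, 7 and 12 in the knockdown libraries. Near NR4A2, GPD2 was higher with both (0.87 and 0.71), 1 of 2 tested. Near NR4A3, 3 were tested, all with negative log2FC. ERP44 was lower with both siRNAs (-0.35 and -0.62), INVS was called lower with EA1 siRNA 1 alone (-0.39 and -0.26) and STX17 with EA1 siRNA 2 alone (-0.25 and -0.44). NR4A1 lies on the chromosome of ATF1, with its start 1.20 Mb beyond the end of ATF1. An antisense gene, NR4A1AS, shares 754 exon bases with NR4A1 and was not analysed here, and the strand setting of the counting is not given in the sources used here, so reads from it could not be told apart from NR4A1.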

How the data were processed

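Polyadenylated RNA of 6 SU-CCS-1 libraries (2 per condition) was sequenced with a stranded kit. Alignment by the authors was to hg38 (BWA-MEM), and reads were assigned to genes with featureCounts (1.6.3, from the submitters' processing notes). The deposited values are raw counts per gene and were used as deposited; the annotation and strand setting of the counting are not given in the sources used here. Reads from stretches shared by related genes are uncertain. Groups came from sample titles.

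From the counts, edgeR 4.0.16 in R 4.3.3 fitted all 3 conditions together (TMM normalization, filterByExpr with a minimum count of 10 and total of 15, 14571 of 18118 genes), with quasi-likelihood tests for control against each siRNA and between siRNAs, and Benjamini-Hochberg adjustment over all genes tested. The model was tested on simulated data. The study used DESeq2, which was run here (1.42.0) as an alternative, as were other filters and scaling, a replicate block, length scales and leaving out each library. Log2 CPM used a prior count of 2. Totals of 5942808 to 7599305 counts put a floor of 3 counts at 0.395 to 0.505 CPM, which covers counting error only.

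The members and gene lists were chosen with earlier results of these data known. Genes named are the members; ATF1 and EWSR1; from the receptor and cAMP target lists, the 3 with the largest mean log2FC in each direction among those called with both siRNAs; RXR, CREM, CREB1 and CRTC genes; the 5 most alike genes per member, of which 1 is not reported here; and neighbours called with both siRNAs. Named outside this rule were ESR2, NR2F6, NR2C2, PPARD, PFKM, INVS, STX17, NR4A1AS and the markers SOX10, PMEL and MLANA. Others are marked where named. None of the 8 listed markers of other cell types was among the 18118 genes counted, so none could be tested. RefSeq promoter windows were matched by symbol.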

Additional observations from a re-analysis of the deposited data

How the results depend on the processing

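All 6 comparisons of an NR4A gene between control and an EA1 siRNA kept their direction and remained called by edgeR or DESeq2 under every alternative run: RLE size factors, all genes unfiltered, a floor of 10 counts in each library, a replicate block, DESeq2 over 3 conditions or over the 4 libraries compared, and leaving out each of the 6 libraries, where a lone library is assumed to vary like the other groups. The differences between siRNAs depended on single libraries. With 1 library left out, the NR4A1 difference ranged from -0.93 to -0.46, NR4A2 from -1.41 to 0.10 and NR4A3 from 0.13 to 0.55 on the log2 scale, and the receptors called from 9 to 15 with either siRNA, against 14. The cAMP target counts stayed within 1.5 times of the main ones. With the replicate number as a block, the NR4A1 difference was -0.67 and called (adjusted p = 0.0255), and the genes called between siRNAs rose from 326 to 853; leaving out 1 library gave 33 to 788. DESeq2 gave no adjusted p for the NR4A2 difference in its pairwise run. Deviations of same-numbered libraries correlated at 0.13 to 0.199. No label ties the 2 numbers to a batch, so whether they pair the libraries is not known, and the main fit left them unpaired. No other call on an NR4A gene changed with the block. NR4A3 held the largest share of the family on every length scale, and NR4A1 held 14.5% in control per longest transcript and 14.1% by counts. Depth limits NR4A2 after knockdown, which rests on 10 to 36 counts a library.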
